A study of Mus musculus with 8 samples.

Results

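The genes described here are the interleukin genes of the IL-1, IL-18, IL-33 and IL-15 systems that the study measured in mouse astrocytes: the ligands Il1a, Il1b, Il18, Il33 and Il15, the inhibitors Il1rn and Il18bp, and the receptor genes Il1r1, Il1rap and Il15ra. They were chosen by gene symbol, and each of the 10 symbols named 1 of the 54146 genes in every library. Primary cortical astrocytes from newborn C57BL/6 pups were grown as mixed glia and infected with a lentivirus carrying a short hairpin RNA against Gstm1 (GSTM1 KD) or a non-silencing one (control KD). The infected cells of both kinds were selected with puromycin, shaken to remove oligodendrocyte lineage cells and microglia, and passed over CD11b beads, with the negative fraction kept. Each kind was then left without stimulation (basal) or given TNF-α at 50 ng/ml for 6 h, which makes 4 groups: control KD basal, GSTM1 KD basal, control KD TNF and GSTM1 KD TNF. Each group had 2 biological replicates, 8 libraries in all. Each flask pooled the brains of more than 1 pup.

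IL-1α and IL-1β both act through IL-1R1, which needs the accessory protein IL-1RAP to signal, while IL-1Ra, the product of Il1rn, occupies IL-1R1 without signalling. IL-33 shares IL-1RAP with its own receptor ST2, and IL-18 uses a separate receptor pair and is neutralised by IL-18BP. IL-15 belongs to another cytokine family: it is bound by IL-15Rα on the producing cell and presented to neighbouring cells that carry the IL-2 receptor β and γ chains. In the brain, IL-1 is known mainly as a product of activated microglia, and IL-33 as a nuclear protein of glia that is released on damage.

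TNF-α raised 2 of the 7 testable genes in control KD astrocytes, the receptor genes Il15ra (5.18-fold) and Il1rap (2.03-fold), and raised Il15ra (3.41-fold), Il1rap (2.34-fold) and the ligand Il15 (3.79-fold) in GSTM1 KD astrocytes. Against the background of 2.63% of genes called in either direction in control KD and 2.65% in GSTM1 KD, these were 2 of 7 and 3 of 7. Knockdown of Gstm1 lowered Il1rap by 1.54-fold at the basal level, 1 of 7 members where 10.2% of all genes were called. After TNF-α, GSTM1 KD astrocytes had 2.46-fold more Il15 and 2.57-fold more Il18 than control KD astrocytes, 2 of 7 members where 16.2% of all genes were called. The difference between the TNF-α responses of the 2 kinds of astrocytes passed the threshold for 0 of 7 members and for 0.0% of all genes in edgeR; 0 members and 295 genes had an unadjusted p under 0.05, and DESeq2 called 0 members and 27 genes. A call is an adjusted p under 0.05, where edgeR's quasi-likelihood test was adjusted over all genes tested by the Benjamini-Hochberg method. Il1a, Il1b and Il1rn had too few counts to be tested. The knockdown comparisons and the TNF-α responses share libraries, so they are not independent of each other.

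The median log2 fold change of the 7 members was 0.52 for the basal knockdown effect, where that of all genes tested was -0.00203. It was 0.67 beside -0.0106 for the knockdown effect after TNF-α, 1.02 beside -0.0212 for the TNF-α response in control KD, and 1.23 beside -0.00713 for the response in GSTM1 KD. The members are a chosen list, and the medians are given as a description.

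The libraries held 17349682 to 34434615 counts, and the replicates of each group differed by more than sampling noise. Gstm1, the target of the hairpin, was at 230 and 377 CPM (counts scaled to a common library total) in control KD basal and at 29.0 and 31.3 CPM in GSTM1 KD basal. After TNF-α it was at 209 and 390 CPM in control KD and at 24.3 and 23.3 CPM in GSTM1 KD, so every GSTM1 KD library lay below every control KD library, as labelled. Astrocyte markers were abundant throughout: the 10 listed genes summed to between 3229 and 9600 CPM. The lowest sums were in replicate 1 of control KD, 3229 CPM at the basal level and 3315 CPM after TNF-α, and the next lowest was 6567 CPM. The 20 microglia and macrophage markers summed to 66.6 and 59.9 CPM in the same 2 libraries, the highest of the 8, with 59.8 CPM next. Gene levels are measured per unit of RNA in a culture, so fewer cells of a type and less RNA per cell cannot be told apart.

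Levels between genes were compared as TPM, which is scaled for transcript length. They put Il1rap first with a mean of 46.2 TPM over the 8 libraries and a range of 23.4 to 79.4 TPM. Il18 (mean 12.1 TPM), Il15ra (11.1 TPM), Il1r1 (9.61 TPM) and Il15 (7.13 TPM) came next, followed by Il18bp (4.28 TPM) and Il33 (1.94 TPM). Il1rn (0.30 TPM), Il1a (0.098 TPM) and Il1b (0.075 TPM) came last. Il1rap was above Il18 in 8 of 8 libraries with no overlap of their ranges. The ranges of all other neighbours in this order overlapped. Il18 was above Il15ra in 5 of 8 libraries, and Il15ra was above Il1r1 in the 4 TNF libraries and below it in the 4 basal ones. Il33 was above Il1rn in every library.

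**Figure D1:**
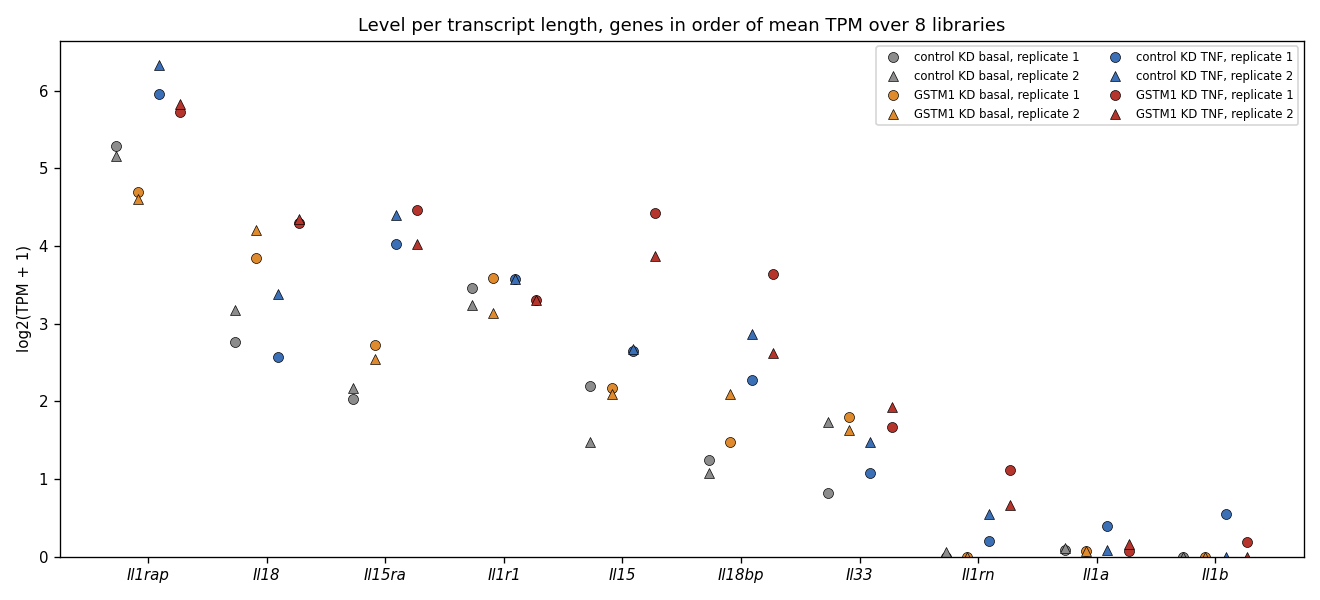
The level of each gene as log2(TPM + 1) in each of the 8 libraries, with genes in order of their mean TPM; circles are replicate 1, triangles replicate 2, and colours the 4 groups. Il1rap lies above the other 9 genes in every library, and Il1a and Il1b lie lowest by mean.

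Il1a (chr2:129299610-129309972, minus strand, GRCm38), the gene of IL-1α, had 2 and 2 counts in control KD basal, 1 and 1 in GSTM1 KD basal, 7 and 1 in control KD TNF, and 1 and 2 in GSTM1 KD TNF. Its highest level was 0.301 CPM, in replicate 1 of control KD TNF. Il1b (chr2:129364570-129371139, minus strand), the gene of IL-1β, had 0 counts in all 4 basal libraries, 7 and 0 in control KD TNF, and 2 and 0 in GSTM1 KD TNF. A count of 0 allows up to 3 counts, which is 0.0848 to 0.180 CPM over the 8 libraries, so a response of Il1b to TNF-α was not detectable at this depth in replicate 2 of either kind. The library with 7 counts of each gene, replicate 1 of control KD TNF, had a sum of 59.9 CPM over the 20 microglia and macrophage markers. The highest such sum, 66.6 CPM, was in replicate 1 of control KD basal, which had 0 counts of Il1b and 2 of Il1a.

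Il1rn (chr2:24336853-24351494, plus strand) had 0 and 1 counts in control KD basal and 0 and 0 in GSTM1 KD basal. The TNF libraries held 1 and 8 counts for control KD, and 7 and 7 for GSTM1 KD. The control KD replicates thus disagreed, at 0.0431 and 0.481 CPM, while the GSTM1 KD replicates lay at 0.323 and 0.402 CPM. The GSTM1 KD mean after TNF-α was at least 2.6-fold higher than at the basal level, computed against 3 counts in each basal library. The effective length assigned to Il1rn ranged 3.64-fold between libraries, the widest range of the members, and its TPM values carry that range.

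Il18 (chr9:50554827-50581840, plus strand), the gene of a cytokine made as an inactive precursor, was at 2.18 and 2.93 CPM in control KD basal and at 4.72 and 5.96 CPM in GSTM1 KD basal. After TNF-α it was at 1.85 and 3.37 CPM in control KD and at 6.46 and 7.01 CPM in GSTM1 KD. All 4 GSTM1 KD libraries lay above all 4 control KD libraries, and the TNF libraries overlapped with the basal ones in control KD and lay above them in GSTM1 KD. The knockdown effect was a log2 fold change of 1.36 after TNF-α (SE 0.34, edgeR adjusted p = 0.0495, 2.57-fold) and of 1.07 at the basal level (SE 0.29, adjusted p = 0.0721), where it missed the threshold. The basal value passed in DESeq2 (1.06, adjusted p = 0.0387), in edgeR with no filter (1.04, adjusted p = 0.00845) and in edgeR with a replicate block (1.07, adjusted p = 0.00875). The TNF-α response was 0.02 in control KD (95% interval -0.75 to 0.79, adjusted p = 0.998) and 0.34 in GSTM1 KD (-0.39 to 1.06, adjusted p = 0.918). The call after TNF-α was lost when replicate 1 of control KD was left out (0.98, adjusted p = 0.0529), and also without GSTM1 KD replicate 1 (1.42, adjusted p = 0.173) or replicate 2 (1.301, adjusted p = 0.247). It was 1.37 with the effective lengths as offsets (adjusted p = 0.0588).

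Il33 (chr19:29925114-29960718, plus strand) was at 1.05 and 2.81 CPM in control KD basal, 3.22 and 2.70 CPM in GSTM1 KD basal, 1.51 and 2.47 CPM in control KD TNF, and 2.91 and 3.68 CPM in GSTM1 KD TNF. Replicate 1 of control KD was the lowest library in both states, and the basal groups overlapped. The log2 fold change with knockdown was 0.64 without stimulation (SE 0.50, edgeR adjusted p = 0.425) and 0.72 after TNF-α (SE 0.36, adjusted p = 0.208). Both values rested on single libraries. The TNF-α value was 0.39 without control KD replicate 1 (adjusted p = 0.491) and 1.096 without control KD replicate 2 (adjusted p = 0.0630). The basal value was 0.07 without control KD replicate 1 (adjusted p = 0.906) and 1.49 without control KD replicate 2 (adjusted p = 0.0172). The TNF-α responses were 0.05 (95% interval -1.10 to 1.19) in control KD and 0.15 (-0.95 to 1.25) in GSTM1 KD. The low Il33 and Il18 values in replicate 1 of control KD stood beside the lowest astrocyte marker sums of the series, 3229 and 3315 CPM, and the part of that in these results was not tested.

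Il15 (chr8:82331632-82403222, minus strand) was at 1.61 and 1.02 CPM in control KD basal and at 2.10 and 1.70 CPM in GSTM1 KD basal. After TNF-α it was at 2.45 and 3.37 CPM in control KD and at 8.36 and 6.09 CPM in GSTM1 KD. Both GSTM1 KD TNF libraries stood above the other 6, and in each kind both TNF libraries stood above both basal ones. The TNF-α response was a log2 fold change of 1.92 in GSTM1 KD (SE 0.33, edgeR adjusted p = 0.0276) and 1.12 in control KD (SE 0.33, adjusted p = 0.178), which passed only with no filter (1.10, adjusted p = 0.0235) among the alternatives run. The difference of the responses was 0.80 (95% interval -0.29 to 1.89, adjusted p = 1), and ran from 0.198 without control KD replicate 1 in both states to 1.37 with effective lengths as offsets, never called. The knockdown effect was 1.299 after TNF-α (SE 0.296, adjusted p = 0.0420) and 0.52 at the basal level (SE 0.37, adjusted p = 0.379). The basal value was 0.90 without control KD replicate 1, 0.23 without control KD replicate 2 and 0.28 with effective lengths as offsets. The call after TNF-α was lost without control KD replicate 1 (1.09, adjusted p = 0.0567), GSTM1 KD replicate 1 (1.06, adjusted p = 0.214) or GSTM1 KD replicate 2 (1.51, adjusted p = 0.136). The response in GSTM1 KD was 1.67 to 2.13 without any 1 of its 4 libraries, and no such fit called it (adjusted p = 0.0668 to 0.238).

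Il18bp (chr7:102014885-102018690, minus strand), whose product binds and blocks IL-18, was at 1.22 and 1.13 CPM in control KD basal and at 1.29 and 2.05 CPM in GSTM1 KD basal. After TNF-α it was at 2.97 and 4.57 CPM in control KD and at 7.94 and 4.14 CPM in GSTM1 KD. Every TNF library was above every basal library. The TNF-α response had a log2 fold change of 1.67 in control KD (SE 0.42, edgeR adjusted p = 0.107) and 1.86 in GSTM1 KD (SE 0.41, adjusted p = 0.0758). Neither passed with the filter on low counts, and both passed in DESeq2 (1.68, adjusted p = 0.0130, and 1.86, adjusted p = 0.00372) and in edgeR with no filter (1.64, adjusted p = 5.15e-05, and 1.85, adjusted p = 1.63e-06). The knockdown effect was 0.50 at the basal level (adjusted p = 0.401) and 0.67 after TNF-α (adjusted p = 0.282), and the groups overlapped after TNF-α. Both values rested on single libraries. The basal value was 0.12 without GSTM1 KD replicate 2, and with effective lengths as offsets it was 0.95. The value after TNF-α was 0.13 without GSTM1 KD replicate 1 and 1.06 without replicate 2. Exons of Il18bp share 80 bases with Numa1 on the opposite strand, and the sources used here do not state whether the counting used the strand.

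Il1r1 (chr1:40225080-40317257, plus strand), the signalling receptor of IL-1, was at 26.9 and 22.6 CPM in control KD basal, 28.2 and 19.2 CPM in GSTM1 KD basal, 29.5 and 29.0 CPM in control KD TNF, and 23.8 and 23.3 CPM in GSTM1 KD TNF. The levels of the 8 libraries lay within a narrow band, and the 2 TNF groups did not overlap. After TNF-α the knockdown effect was a log2 fold change of -0.34 (SE 0.12, edgeR adjusted p = 0.0985). The other changes were -0.06 for the basal knockdown effect (95% interval -0.60 to 0.48), 0.24 for the response in control KD (-0.19 to 0.67) and -0.01 for the response in GSTM1 KD (-0.45 to 0.42). The response in control KD was 0.37 without control KD basal replicate 1 and 0.13 without control KD basal replicate 2.

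Il1rap (chr16:26581704-26730117, plus strand), the shared accessory chain, was at 87.6 and 80.6 CPM in control KD basal and at 56.3 and 52.8 CPM in GSTM1 KD basal. After TNF-α it was at 147 and 195 CPM in control KD and at 124 and 131 CPM in GSTM1 KD. GSTM1 KD lay below control KD in each state without overlap, and TNF-α libraries lay above basal ones in each kind. The basal knockdown effect was a log2 fold change of -0.63 (SE 0.10, 95% interval -0.88 to -0.37, edgeR adjusted p = 0.0281), and after TNF-α it was -0.45 (SE 0.15, adjusted p = 0.0972), which passed in edgeR with a replicate block (-0.43, adjusted p = 0.0248) or with no filter (-0.45, adjusted p = 0.00669). The TNF-α response was 1.02 in control KD (SE 0.14, adjusted p = 0.0124) and 1.23 in GSTM1 KD (SE 0.14, adjusted p = 0.00547), with a difference of 0.20 (-0.26 to 0.66, adjusted p = 1). The basal call was lost without GSTM1 KD replicate 1 (-0.67, adjusted p = 0.173) or replicate 2 (-0.59, adjusted p = 0.293). Leaving out GSTM1 KD basal replicate 1 or 2 also ended the call of the response in GSTM1 KD (1.28, adjusted p = 0.0661, and 1.18, adjusted p = 0.0814). The response in control KD was not called without control KD basal replicate 2 (0.97, adjusted p = 0.0643) or on the 4 control KD libraries alone (1.03, adjusted p = 0.131). Without control KD TNF replicate 1 the knockdown effect after TNF-α was called, at -0.63 (adjusted p = 0.00821), and without control KD TNF replicate 2 it was -0.23 (adjusted p = 0.132). Exons of Il1rap share 552 bases with the antisense gene Gm20319, whose reads cannot be told apart if the counting ignored the strand.

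Il15ra (chr2:11705290-11734317, plus strand), the chain that presents IL-15, was at 1.92 and 2.35 CPM in control KD basal and at 2.92 and 3.50 CPM in GSTM1 KD basal. After TNF-α it was at 9.99 and 12.1 CPM in control KD and at 12.4 and 9.48 CPM in GSTM1 KD. The 4 TNF libraries were all far above the 4 basal ones, and the 2 TNF groups overlapped. Its log2 fold change of 2.37 in control KD (SE 0.23, edgeR adjusted p = 0.00431) was the highest of any member in any comparison, and the response in GSTM1 KD was 1.77 (SE 0.23, adjusted p = 0.00896). The difference of the responses was -0.60 (95% interval -1.35 to 0.15, adjusted p = 1). The response in control KD was called in 12 of 12 alternative fits. The response in GSTM1 KD was not called without GSTM1 KD basal replicate 1 (1.64, adjusted p = 0.114), basal replicate 2 (1.91, adjusted p = 0.0814) or TNF replicate 1 (1.56, adjusted p = 0.0718). The knockdown effect was 0.59 at the basal level (adjusted p = 0.223), where the groups did not overlap, and -0.03 after TNF-α (adjusted p = 0.926).

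**Figure D2:**
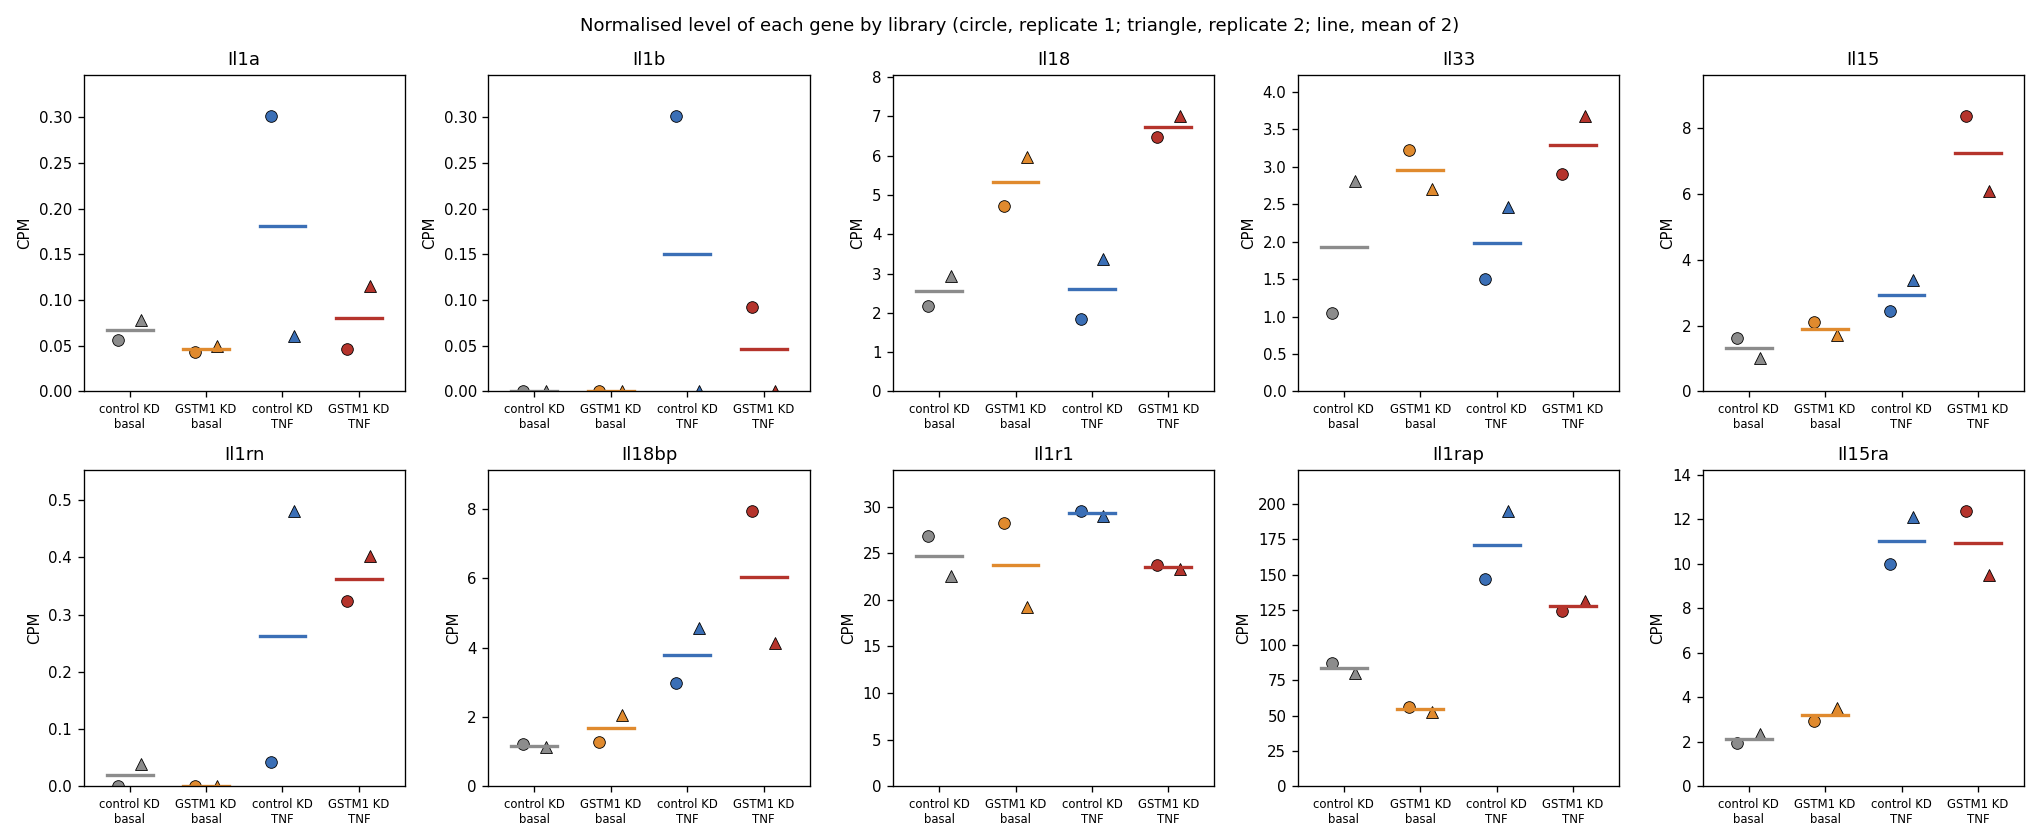
The level of each of the 10 genes in CPM, a linear axis from 0 in each panel, for the 4 groups; circles are replicate 1, triangles replicate 2 and lines the mean of 2. Il1rap and Il15ra stand higher in all TNF libraries than in basal ones, Il15 is highest in the GSTM1 KD TNF libraries, and Il18 is higher in all GSTM1 KD libraries than in all control KD ones.

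**Figure D3:**
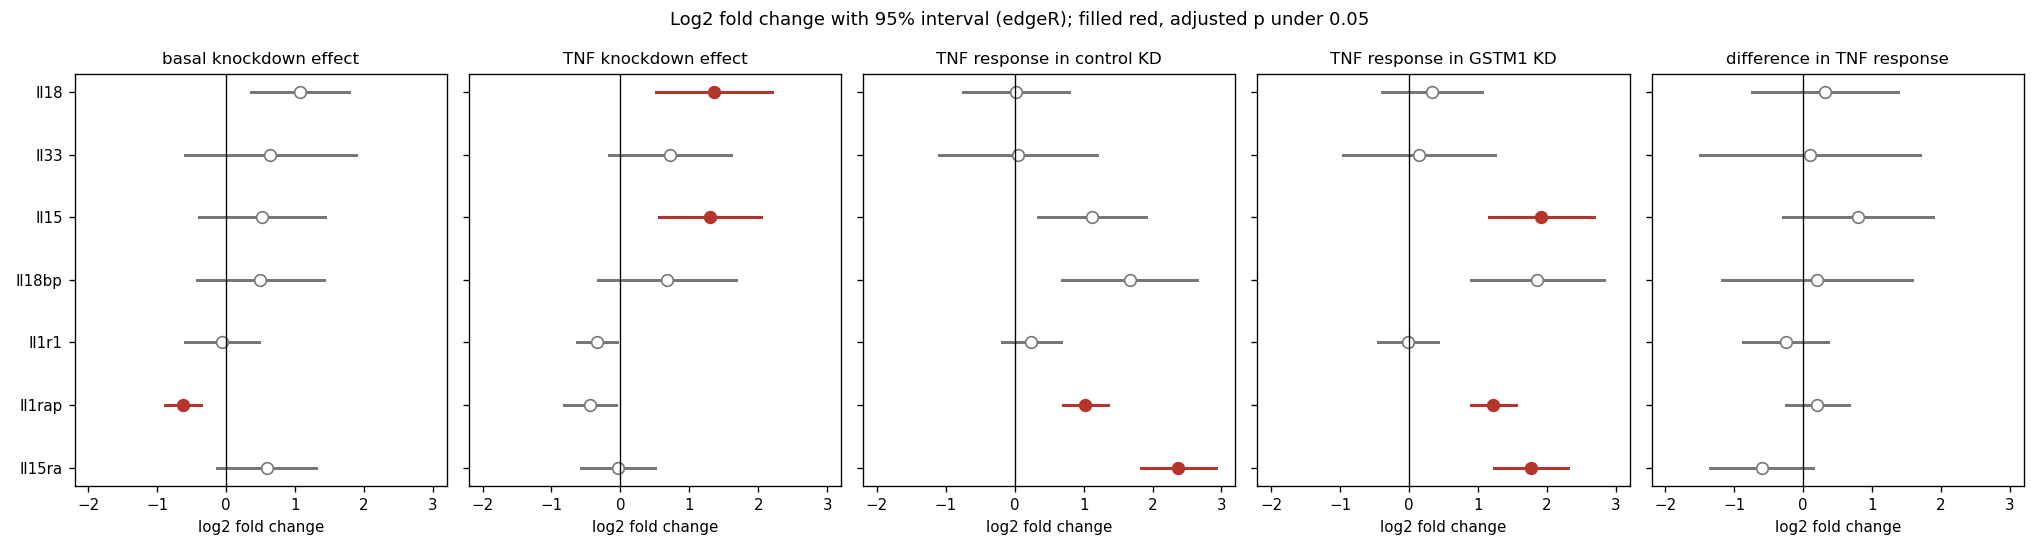
The log2 fold change (point) and its 95% interval (line) of the 7 genes that could be tested, for the 5 comparisons; filled red points passed an edgeR adjusted p of 0.05. Il1rap and Il15ra are red in both TNF-α responses, while none is red in the panel of the difference between the responses.

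The sequences around the start sites of the receptor genes that rose after TNF-α are shown for letters of known inflammatory response elements. The 300-base promoters (250 bases before to 50 after a start) came from RefSeq (GRCm38.p6). The promoter set used here gave 14 promoters of 9 of the 10 genes, with none matched to Il15. Letters searched on both strands were GAAANNGAA, the core of an interferon-stimulated response element, found in 8.56% of all 32851 promoters, TGANTCA, an AP-1 site, found in 7.81%, TTCNNNGAA, the letters of a STAT site, in 8.30%, and the NF-κB consensus, in 8.46%. GAAANNGAA and TTCNNNGAA can share letters. In the lines below each match is in capitals with 10 bases on either side. The first is from the promoter of Il1rap, 20 bases after the start (chr16:26581715-26581743, plus strand). The next pair is from the more downstream promoter of Il15ra, 30 bases after its start (chr2:11705732-11705760) and 30 bases before it (chr2:11705672-11705698), and the last is from the other promoter of Il15ra, where the letters are on the opposite strand and 149 bases before the start (chr2:11705134-11705162).
Il1rap, GAAANNGAA: tccggaggggGAAAAAGAAagtgcggcgg
Il15ra, GAAANNGAA: aagcaaaagcGAAAGCGAAtactccttag
Il15ra, TGANTCA: gtggggatgcTGAGTCAcagatctgtc
Il15ra, GAAANNGAA, opposite strand: tcaccccttcTTCCATTTCaaacacttgg
The promoters of Il1rap and Il15ra, the genes that rose, held neither the NF-κB consensus nor TTCNNNGAA. Il1a and Il1rn each held TGANTCA, and the second promoter of Il1r1 held the NF-κB consensus, while none of the 4 motifs was in the promoters of Il18, Il18bp, Il33 or Il1b. A match is a description of letters in this window and not a measured binding site.

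The other genes of these pathways were listed by role. Of the 5 other ligands of the IL-1 family (Il36a, Il36b, Il36g, Il36rn and Il1f10), 0 could be tested, and Il36g with 1 count in 1 library was the only one above 0. Of the 8 other receptor genes 3 could be tested (Il1rl1, Il18rap and Il1rapl1), and 0 passed in any of the 5 comparisons by edgeR or DESeq2, with 0 to 3 at an unadjusted p under 0.05. Il18r1, the binding chain of the IL-18 receptor, had 0 counts in 7 libraries and 1 in replicate 2 of control KD TNF, and Il1r2, a decoy receptor of IL-1, had at most 2. Il1rl1, the gene of ST2, was at 1.61 and 1.68 CPM in control KD basal and at 0.729 and 0.601 CPM in GSTM1 KD basal, with a knockdown effect of -1.30 (SE 0.34, edgeR adjusted p = 0.0692). Il18rap, the signalling chain of the IL-18 receptor, had knockdown effects of -1.26 at the basal level (adjusted p = 0.0796) and -0.66 after TNF-α (adjusted p = 0.207). Il1rapl1, a receptor relative known from synapses, went the other way, with 1.22 (adjusted p = 0.133) and 1.42 (adjusted p = 0.106). The median log2 fold change of the 3 receptor genes tested was -1.26 for the basal knockdown effect and -0.66 after TNF-α, beside -0.00203 and -0.0106 for all genes, over genes of both signs.

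All 13 receptor adaptors and kinases could be tested. At the basal level 0 rose and 3 fell in GSTM1 KD, and after TNF-α 0 rose and 4 fell, with list medians of -0.42 and -0.14. Of all genes tested, 4.6% rose and 5.62% fell at the basal level, and 7.26% rose and 8.92% fell after TNF-α. The 3 that fell in both states were Map3k7, the kinase TAK1, and Tab2 and Tab3, its ubiquitin-binding partners. Tab2 fell from 132 ± 15.5 to 71.6 ± 4.80 CPM at the basal level (SD, n = 2), a log2 fold change of -0.88 (edgeR adjusted p = 0.0228), and from 153 ± 11.5 to 76.0 ± 4.06 CPM after TNF-α (-1.04, adjusted p = 0.0109). Tab3 fell by 1.19 and 1.09 on the log2 scale, and Map3k7 by 0.66 and 0.58. Irak3, a kinase-inactive member that restrains IL-1 receptor signalling, was at 2.11 and 2.47 CPM in control KD TNF and at 0.508 and 0.460 CPM in GSTM1 KD TNF (-2.24, adjusted p = 0.0201). With 11 and 8 counts in GSTM1 KD TNF, Irak3 met the filter on low counts through control KD TNF, where it was high. Its fold change and call after TNF-α are given as a description. Myd88, the adaptor that joins these receptors to the IRAK kinases, rose in both TNF-α responses, from 16.6 ± 1.68 to 32.2 ± 1.52 CPM in control KD (0.96, adjusted p = 0.0187) and from 12.3 ± 0.160 to 34.1 ± 5.79 CPM in GSTM1 KD (1.48, adjusted p = 0.00333). Each of these knockdown calls was lost when either GSTM1 KD library of its state was left out (adjusted p of the 7 gene and state pairs from 0.0734 to 0.288), with values between -2.31 and -0.53. Leaving out control KD basal replicate 2 or either control KD TNF replicate ended the Myd88 call in control KD (0.87, 1.00 and 0.92), as did leaving out replicate 1 in both states (1.11) or fitting the 4 control KD libraries alone (0.96), and leaving out either GSTM1 KD basal replicate ended the one in GSTM1 KD (1.47 and 1.49).

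Of the 16 genes of the inflammasome and of cytokine processing, 9 could be tested at the basal level and 10 in the other comparisons. Nlrp3, the sensor of the best known inflammasome, had 38 and 17 counts in control KD TNF (1.64 and 1.02 CPM) and 5 and 3 in GSTM1 KD TNF (0.231 and 0.172 CPM), a log2 fold change of -2.71 (SE 0.51, edgeR adjusted p = 0.0275). Nlrp3 met the filter on low counts only through control KD TNF, where it was high, and was not testable at the basal level. Its fold change and call are therefore given as a description. The Nlrp3 call was lost without control KD TNF replicate 1 (-2.31, adjusted p = 0.0642), and without GSTM1 KD TNF replicate 1 (-2.93, adjusted p = 0.155) or replicate 2 (-2.53, adjusted p = 0.212). Casp4, the gene of the caspase known in mice as caspase-11, rose from 1.33 and 1.45 to 8.61 and 14.7 CPM in control KD (3.07, adjusted p = 0.00764) and from 0.343 and 0.501 to 13.6 and 8.56 CPM in GSTM1 KD (4.72, adjusted p = 0.00243). On the 4 control KD libraries alone the Casp4 response was not called (3.07, adjusted p = 0.0590). Casp1, whose product cleaves the precursors of IL-1β and IL-18, rose in GSTM1 KD from 6.56 and 6.06 to 15.7 and 11.8 CPM (1.12, adjusted p = 0.0385). In control KD its response was 0.72 (adjusted p = 0.164), and the difference of the responses was 0.40 (adjusted p = 1). The Casp1 call was lost without any 1 of the 4 GSTM1 KD libraries (0.90 to 1.31, adjusted p = 0.0599 to 0.285). Pycard, the inflammasome adaptor ASC, had 2 to 8 counts per library, and Aim2, Nlrc4, Nlrp1a and Nlrp1b had at most 2, and Mefv had 0 in all 8.

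Among the 8 genes of the IL-15 receptor chains and their signalling, 5 could be tested (Jak1, Jak3, Stat3, Stat5a and Stat5b) and 0 passed in any of the 5 comparisons by edgeR, with 0 to 2 at an unadjusted p under 0.05. DESeq2 called Jak3 in the basal knockdown effect and Stat5a in the response of control KD. The chains themselves were near the floor: Il2rb, the β chain, had 0 to 8 counts per library, Il2rg, the γ chain, 0 to 9, and Il2ra at most 2. The 8 markers of T or NK cells, which carry these chains, summed to 0 to 0.115 CPM.

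**Figure D4:**
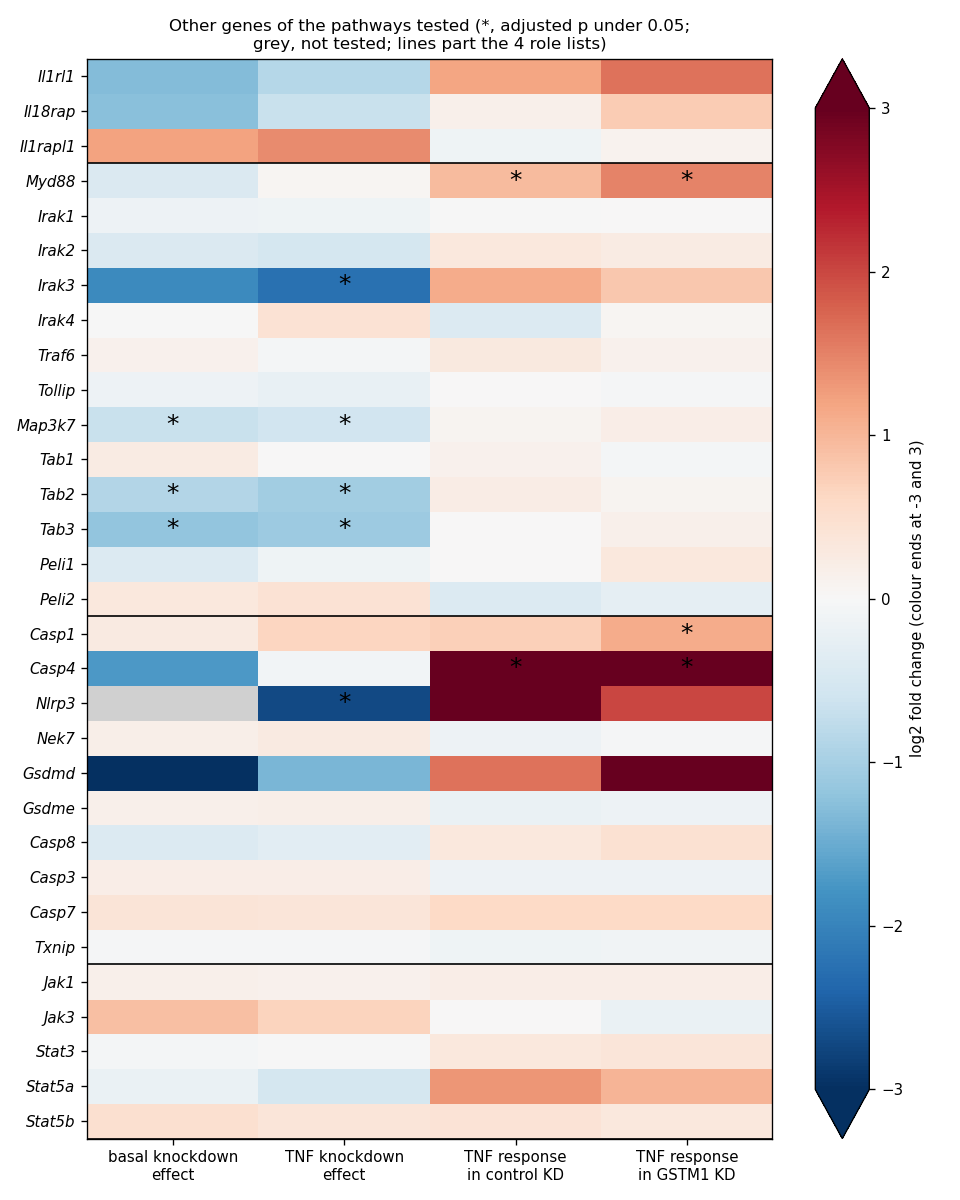
Log2 fold changes (colour, clipped at -3 and 3) of the other pathway genes tested, in 4 comparisons; a star marks an edgeR adjusted p under 0.05, grey a gene not tested, and lines part the 4 role lists. Map3k7, Tab2 and Tab3 are blue with a star in both knockdown columns, and Myd88 and Casp4 red with a star in both TNF-α columns.

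Markers of other cell types were set beside these results. The 20 microglia and macrophage markers summed to 48.5 to 66.6 CPM, and 0 to 7 of the 20 were at 0 counts in a library. The sum was higher in replicate 1 than in replicate 2 of each group. In GSTM1 KD the microglial markers had log2 fold changes with a median of -0.90 without stimulation (8 tested) and -0.66 after TNF-α (6 tested), with 0 called by edgeR or DESeq2 and 0 with an unadjusted p under 0.05. In the same comparisons the 10 astrocyte markers had medians of 0.52 and 0.28, with S100b lower and the other 9 not called by edgeR, while DESeq2 also called Glul in both, where it was higher in GSTM1 KD (0.78 and 0.88 in edgeR). In the TNF-α responses the astrocyte medians were -0.08 in control KD and -0.12 in GSTM1 KD with 0 called by edgeR. In each, 1 marker (Sox9) had an unadjusted p under 0.05, and DESeq2 called 1 and 0. Among markers of other cell types, edgeR called Olig2 lower in the GSTM1 KD response (-0.67, adjusted p = 0.0310). It called Pdgfrb lower in the control KD response (-1.28, adjusted p = 0.0279). Olig2 in control KD (-0.40) and Pdgfrb in GSTM1 KD (-0.91) were not called by edgeR. The 10 oligodendrocyte lineage markers summed to 537 to 840 CPM and the 8 endothelial markers to 10.1 to 27.1 CPM, both lower as sums in GSTM1 KD than in control KD of the same state. In edgeR, Olig2 fell in GSTM1 KD in both states (-0.85, adjusted p = 0.0251, and -1.14, adjusted p = 0.0102) and Olig1 after TNF-α (-0.44, adjusted p = 0.0497). Single genes of these lists also went the other way, among them the endothelial marker Kdr, with an uncalled log2 fold change of 1.39 between the basal groups (adjusted p = 0.124) and of 1.25 between the TNF-α groups (adjusted p = 0.0644 in edgeR). The 8 fibroblast and meningeal markers summed to 1916 to 2928 CPM and were lower in GSTM1 KD as a sum, of which Fn1 made 1754 to 2299 CPM as group means. Single genes of that list differed in direction: after TNF-α Col1a2 was called lower and Pdgfrb was called higher in GSTM1 KD (26.6 ± 5.58 against 47.1 ± 3.05 CPM, SD, n = 2, log2 fold change 0.81, edgeR adjusted p = 0.0337). In the same libraries the 8 neuronal markers summed to 396 to 505 CPM, with both GSTM1 KD libraries above both control KD libraries in each state. Map2, Stmn2 and Tubb3 made nearly all of that sum, with means of 239, 103 and 75.9 CPM in control KD basal. Gad1 was at 4.07, Syt1 at 0.714, Slc17a7 at 0.284, Rbfox3 at 0.101 and Snap25 at 0.0141 CPM in that group. The part of these shifts in the knockdown effects was not tested.

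**Figure D5:**
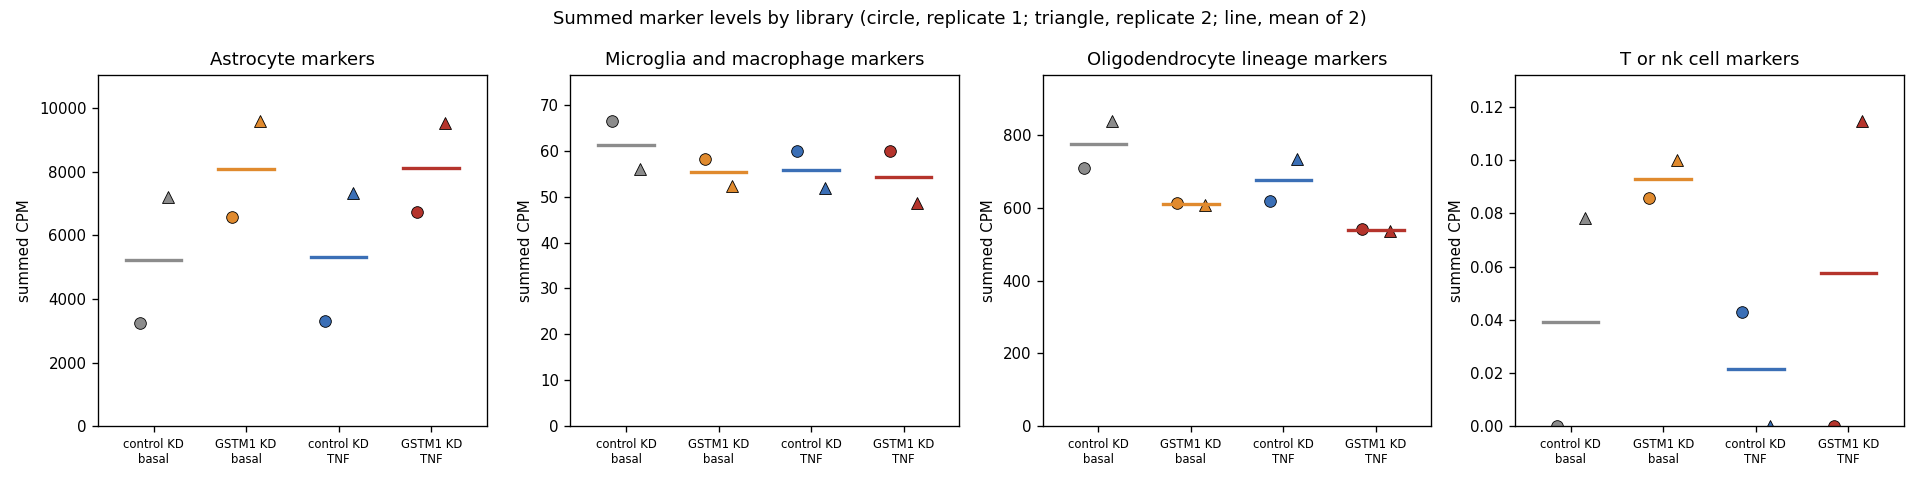
Summed CPM of the astrocyte, microglia, oligodendrocyte lineage and T or NK cell markers in each library, on linear axes from 0; circles are replicate 1, triangles replicate 2 and lines the mean of 2. The 2 replicate 1 libraries of control KD have the lowest astrocyte sums (3229 and 3315 CPM).

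The genes whose log2(CPM + 1) followed each member most closely over the 8 libraries are given as a description, since all libraries share 4 conditions. For Il15ra they were Icosl, Rfx5 and Cx3cl1 (Pearson r = 0.992, 0.989 and 0.986). For Il15 they were Pla2g16, Rnf135 and Khnyn (0.983, 0.979 and 0.978), and for Il18bp Hrh2, Nmi and Ccrl2 (0.988, 0.977 and 0.977). Il1rap was followed by Ctps, Snx11 and Rhbdf2 (0.993, 0.992 and 0.991). For Il18 they were Tmem33, Ccdc90b and Itm2b (0.998, 0.996 and 0.995), and for Il33 Arid4b, Tmem260 and Lax1 (0.976, 0.973 and 0.972). Il1r1, with the narrowest range, had Slc25a13, Cntd1 and Exosc3 (0.955, 0.953 and 0.947). No gene stood among the closest of more than 1 member.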

How the data were processed

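The authors mapped 100-bp paired-end reads of strand-specific libraries to GRCm38 with STAR (version 2.5.4b) and deposited RSEM (version 1.3.0) expected counts, TPM values and effective lengths per gene, named in the submitters' processing notes; the annotation release and the use of strand in counting are not given in the sources used here. The deposited expected counts are estimated counts, not normalized, and were rounded to whole numbers. The deposited TPM values were used for levels between genes, without a test. GENCODE M21 on GRCm38 gave gene positions.

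Genes were filtered with filterByExpr by group, scaled with TMM and tested with the quasi-likelihood F-test of edgeR (version 4.0.16) in R (version 4.3.3), and p-values were adjusted over all genes tested (Benjamini-Hochberg). Knockdown effects used the 4 libraries of a state, and TNF-α responses and their difference all 8, which share one estimate of spread. Standard errors are |log2 fold change| divided by the square root of F. CPM uses TMM factors of all 8 libraries. Groups of 2 are too small for an exact test to reach 0.05. Alternatives were DESeq2 (version 1.42.0), other size factors, no filter, effective lengths as offsets, a replicate block, 8 or 4 libraries and leaving out each library; leaving out control KD replicate 1 in both states was chosen after seeing the data. A fit that leaves an arm with 1 library assumes that it varies like the others. The procedure was also run on simulated counts with libraries drawn independently, so without the correlated replicate differences described below. The outcome of that run is not used as support for any result here. Named genes are the 10 members and other pathway genes past the edgeR threshold in at least 1 comparison or near 0. The 3 closest genes by correlation and Gstm1 were also named, as were the tested genes of the IL-15 signalling list. Il1rl1, Il18rap, Il1rapl1 and single marker genes were named after their values were seen. Members and lists were chosen with earlier results of these data known. Some single genes of the marker lists are not reported here.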

Additional observations from a re-analysis of the deposited data

How the results depend on the processing

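Counts of members called moved by more than 1.5 times under these alternatives, and the cause was not tested. For the basal knockdown effect (1 member, Il1rap), DESeq2, no filter and the replicate block each called 2, with Il18 added, and leaving out single libraries gave 0 to 3. For the knockdown effect after TNF-α (2 members), effective lengths as offsets called 1 and leaving out single libraries gave 0 to 2. For the response in control KD (2 members), no filter called 4, with Il15 and Il18bp added, the 4 control KD libraries alone called 1, and leaving out single libraries gave 1 to 2. For the response in GSTM1 KD (3 members), no filter called 5, with Il18bp added and also Il1rn, whose basal counts are 0, and leaving out single libraries gave 0 to 2. The difference of the responses had 0 calls in each alternative run. Over all genes, leaving out a GSTM1 KD library left 1 and 3 calls at the basal level, and 0 and 94 after TNF-α, while leaving out a control KD library gave 2185 and 5256, and 2703 and 5028.

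The replicate differences of the groups correlated at 0.248 to 0.731 over genes in the 6 pairs of groups, but no source ties a number to a culture or day, and with 2 replicates the numbers were not taken as pairs. The replicate block raised the calls over all genes from 1524 to 4712 at the basal level and from 2360 to 4302 after TNF-α, and added Il18 at the basal level and Il1rap after TNF-α. With the block the response of Il18 in control KD was -0.001 and that of Il1r1 in GSTM1 KD 0.0009.

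The values below changed sign against the reported ones, and none was called. With library size only, the knockdown effect of Il15ra after TNF-α was 0.0035 and the response of Il18 in control KD -0.0159 (-0.0052 with no filter). With effective lengths, the response of Il33 in control KD was -0.0588 and the difference of responses of Il18bp -0.2534. Without control KD replicate 1 in both states, the response of Il33 was -0.1898, and the differences of responses were -0.0515 for Il1rap and -0.1351 for Il18bp. With single libraries left out, the knockdown effect of Il1r1 at the basal level ran from -0.3678 to 0.1807 and that of Il15ra after TNF-α from -0.2321 to 0.1458. In control KD the response of Il33 ran from -0.5192 to 0.9134 and of Il18 from -0.4405 to 0.4023. In GSTM1 KD the response of Il33 ran from -0.0235 to 0.3082 and of Il1r1 from -0.2609 to 0.2983. The differences of responses ran from -0.7678 to 0.6654 for Il33, -0.5112 to 0.0538 for Il1r1, -0.0639 to 0.7755 for Il18 and -0.3603 to 0.5796 for Il18bp. Of the 343 values of single genes under the alternatives that changed the processing, 322 kept their direction and side of the threshold. A value uncalled in both fits counts as kept, and many member values were uncalled in the main fits, so this share does not measure how stable the calls were. With 1 or 2 libraries left out, 23 of 244 values changed sign. The member calls lost in those fits are given with each gene above. Depth limits Il1a, Il1b and Il1rn, which had at most 8 counts in a library.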
